A study of Mus musculus with 6 samples.

Results

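A set of 9 genes of the B lineage was followed in RNA from natural killer (NK) cells of the mouse spleen, out of the 50686 genes in the deposited count table. They were chosen by symbol, and each symbol matched 1 row. Cd79a and Cd79b encode the signalling chains of the B cell receptor, Ms4a1 encodes the surface protein CD20, and Cd22 and Cd72 encode inhibitory receptors of B cells. Blk encodes a kinase of the Src family, Cd24a encodes a small surface glycoprotein, and Pax5 and Ebf1 encode transcription factors. Both groups were C57BL/6J mice. The WT group (3 libraries) came from healthy wild type mice, and the Eumyc group (3 libraries) from mice given Eumyc lymphoma into a vein, with spleens taken on day 14. The labels give no genotype for the Eumyc samples and name neither the lymphoma line nor the animals behind each library, so p-values here measure the spread between libraries, which may be technical.

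B cells carry on their surface an immunoglobulin that binds antigen, and the CD79 chains bound to it pass the signal inward through Src family kinases, SYK and BTK. EBF1 and PAX5 switch on many B lineage genes in early B cells and keep them on. CD22 and CD72 recruit phosphatases that dampen the receptor signal. NK cells are lymphocytes of another lineage with no rearranged antigen receptor, and their activating receptors signal through adaptors of the same motif type. An Eumyc lymphoma is a B lineage tumour in which the immunoglobulin heavy chain enhancer drives Myc.

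In both groups B cells were first depleted with the 1D3 antibody, and the final sort kept cells that carried NK1.1 but lacked TCRb, the beta chain of the T cell receptor. In the Eumyc group the sort also took the cells that CD49b beads had left unbound, so this step and the lymphoma cannot be told apart for any difference given here. The sorted libraries held the NK markers at high levels, with Ncr1 at 1365 ± 43.2 CPM (SD, n = 3) in WT and 1124 ± 66.1 CPM in Eumyc. Klrb1c, which encodes NK1.1, was at 953 ± 25.6 and 684 ± 29.1 CPM. Both fell (edgeR adjusted p = 0.00987 and 0.000570). They were among 7 of 11 NK identity genes called lower, with 0 higher, where 23.1% of all tested genes were called lower and 25.7% higher. The part of this fall in the differences of the B lineage genes was not tested. Library totals ran from 16407611 to 36534191 counts in WT and from 44456157 to 66615602 in Eumyc, so 1 count was worth 0.0274 to 0.0609 CPM in WT against 0.0150 to 0.0225 CPM in Eumyc. CPM is the usual per-million scaling of counts to the library total. Values of single genes are further scaled by the trimmed mean of M values (TMM) unless stated otherwise, and intervals from counts are exact, at 95%, and cover counting error only.

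The genes Cd79a, Cd79b, Pax5, Ebf1, Cd22 and Cd24a rose in Eumyc, and Cd72 fell. Ms4a1 did not pass the test. Of the 9 genes, 8 passed the expression filter, which asked for about 0.247 CPM in 3 libraries, and Blk did not. With edgeR's quasi-likelihood test at a Benjamini-Hochberg adjusted p under 0.05, 6 of 8 were called higher and 1 lower, where 25.7% of all 15458 tested genes were called higher, 23.1% lower and 48.8% in either direction. DESeq2 and limma voom also called 6 higher and 1 lower, against 26.2% and 22.9% of genes with DESeq2 and 26.4% and 24.2% with voom. A fit with the replicate number as a block did the same, against 27% and 23.8%. Requiring 3 CPM in 3 libraries left 4 of the 9 genes in the test, with 3 called higher and 1 lower, against 29.6% and 29% of genes. Of those called higher, Cd79b and Cd24a were below 3 CPM in every WT library, so they entered this stricter test only through Eumyc. Ebf1 reached the 0.247 CPM level in 3 Eumyc and 0 WT libraries, so it entered the main test only through Eumyc. Pax5 and Ms4a1 reached it in 2 WT and 3 Eumyc libraries. The groups did not overlap for 6 tested genes with Eumyc above and for 1 with Eumyc below, against 31.3% and 28.9% of all tested genes (60.2% in either direction). The median log2 fold change of the 8 was 1.76, and that of all tested genes was -0.0050. A bulk library cannot show whether a difference came from more or fewer cells of a type or from more or less RNA per cell.

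**Figure D1:**
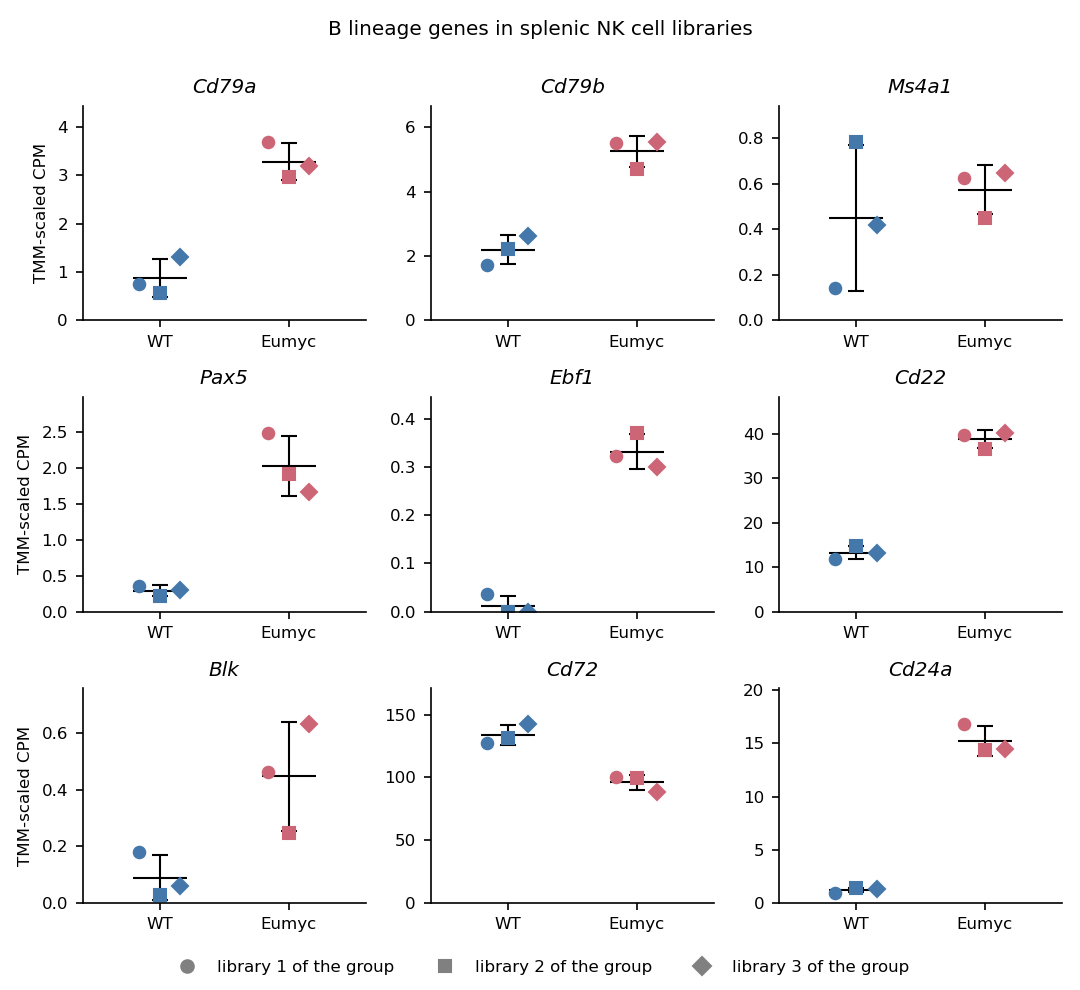
Level of each gene in TMM-scaled CPM (vertical axes, each from 0) in WT (blue) and Eumyc (red) libraries; symbols mark the library, bars the mean and whiskers the SD of 3 libraries. The Eumyc libraries lie above all WT libraries for every gene except Ms4a1, where the groups overlap, and Cd72, where they lie below.

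The 9 genes spanned a wide range of levels. Compared per transcript length, as TPM, in which counts are divided by exonic length before scaling, the order in WT was Cd72 at 139 ± 6.94 TPM (SD, n = 3), Cd22 at 9.33 ± 1.13, Cd79b at 5.45 ± 1.08, Cd79a at 2.14 ± 0.919, Cd24a at 1.66 ± 0.319 and Ms4a1 at 0.259 ± 0.188 TPM. Blk and Pax5 followed, both near 0.117 TPM, and Ebf1 was last. Ranges over the libraries overlapped between Cd79a and Cd24a, between Ms4a1 and Blk and between Blk and Pax5, so these neighbours did not differ beyond their spread. In Eumyc the order was Cd72 at 93.1 ± 6.47 TPM, Cd22 at 25.5 ± 0.955, Cd24a at 19.6 ± 1.55, Cd79b at 12.2 ± 0.936 and Cd79a at 7.46 ± 0.742 TPM, all apart from each other. Pax5 at 0.759 ± 0.150, Blk at 0.548 ± 0.232 and Ms4a1 at 0.307 ± 0.0540 TPM overlapped as neighbours, and Ebf1 was last at 0.113 ± 0.0139 TPM. Cd24a moved from the fifth place to the third.

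**Figure D2:**
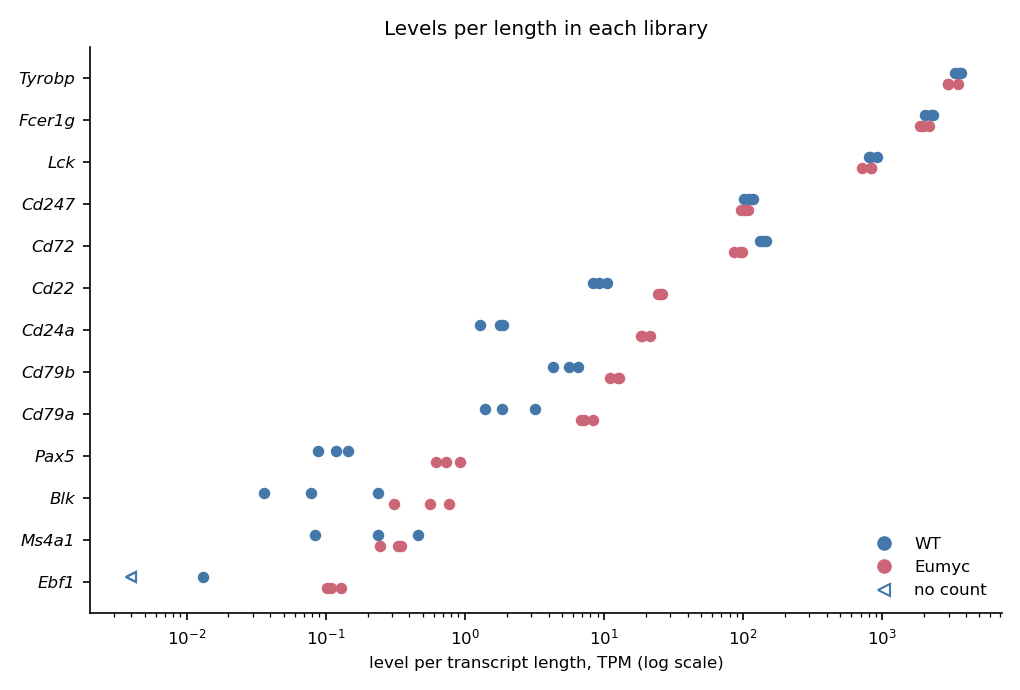
Level per transcript length in TPM (horizontal log axis) of the 9 genes and 4 signalling genes of NK cells, with 1 point per library (WT blue, Eumyc red, open triangle for no count). Cd72 lies near Cd247 and above the other B lineage genes, whereas Ms4a1, Blk, Pax5 and Ebf1 stay below 1 TPM in every library.

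Sequence before the start site was available in RefSeq (GRCm38.p6) for 5 of the 9 genes, Cd79a, Pax5, Ebf1, Cd22 and Cd72, as windows of 250 bases before to 50 after the start. The windows of 3 genes are shown to set a gene of the receptor complex and a receptor gene that rose beside the receptor gene that fell. Each is written 5′ to 3′ on the gene's strand, and capitals mark matches on either strand to the EBF palindrome, the octamer ATGCAAAT, the E-box CAGGTG or the ETS motif AGGAAGT. Cd79a is chr7:24897247-24897546 on the plus strand, Cd22 is chr7:30878979-30879278 on the minus strand and Cd72 is chr4:43454577-43454876 on the minus strand.
Cd79a: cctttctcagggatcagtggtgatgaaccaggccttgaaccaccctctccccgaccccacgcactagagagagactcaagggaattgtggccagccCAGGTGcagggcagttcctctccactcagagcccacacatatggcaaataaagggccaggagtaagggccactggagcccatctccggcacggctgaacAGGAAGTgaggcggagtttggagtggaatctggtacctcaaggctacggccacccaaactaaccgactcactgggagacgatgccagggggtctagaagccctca
Cd22: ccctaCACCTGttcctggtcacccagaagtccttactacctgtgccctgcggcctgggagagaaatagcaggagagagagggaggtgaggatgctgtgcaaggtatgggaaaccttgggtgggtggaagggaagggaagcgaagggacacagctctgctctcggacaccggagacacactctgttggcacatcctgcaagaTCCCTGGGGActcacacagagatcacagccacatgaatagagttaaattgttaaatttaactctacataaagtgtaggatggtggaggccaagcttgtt
Cd72: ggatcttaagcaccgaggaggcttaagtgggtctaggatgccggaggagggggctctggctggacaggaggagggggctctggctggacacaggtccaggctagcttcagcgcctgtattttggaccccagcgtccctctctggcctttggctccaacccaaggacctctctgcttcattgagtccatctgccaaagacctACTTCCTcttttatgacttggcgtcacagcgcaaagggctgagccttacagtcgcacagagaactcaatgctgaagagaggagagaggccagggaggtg
The Cd79a window held an E-box from -154 to -149 and an ETS match from -55 to -49, counted from the start site. The Cd22 window held an EBF palindrome, TCCCTGGGGA, from -49 to -40 and an E-box on the other strand from -245 to -240. The Cd72 window held an ETS match on the other strand from -49 to -43. Over all 32851 promoter windows of the table, 0.904% held the EBF palindrome, 1.74% the octamer, 20.2% the E-box and 9.35% the ETS motif. The Pax5 window and both Ebf1 windows held none of these letters. A match is a run of letters and not a measured site.

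Both receptor chain genes rose in Eumyc. Cd79a (ENSMUSG00000003379, chromosome 7 from 24897381 to 24902197) had 21, 21 and 22 counts in WT 1, 2 and 3 and 160, 191 and 212 counts in Eumyc 1, 2 and 3. In CPM these were 0.758, 0.568 and 1.32 in WT and 3.69, 2.95 and 3.19 in Eumyc. Every Eumyc library lay above every WT library, and WT 3 was the highest of the WT libraries. The log2 fold change was 1.97 ± 0.31 (SE), with an edgeR adjusted p of 0.00138. Cd79b (ENSMUSG00000040592, chromosome 11 from 106311341 to 106314762) had 1.73, 2.22 and 2.64 CPM in the WT libraries against 5.52, 4.70 and 5.55 CPM in Eumyc. Again the groups did not overlap and WT 3 was highest in WT, and the log2 fold change was 1.27 ± 0.20 with an edgeR adjusted p of 0.00135. In the authors' deposited table the log2 fold changes were 1.54 for Cd79a and 1.13 for Cd79b, with adjusted p-values of 2.04e-06 and 3.77e-06. The CD79 chains carry the motif type of the NK adaptors Tyrobp, Fcer1g and Cd247. Per length these adaptors were at 3514 ± 168, 2201 ± 158 and 110 ± 8.01 TPM in WT and at 3161 ± 314, 2006 ± 162 and 103 ± 6.17 TPM in Eumyc, all above both CD79 genes in every library. None of the 3 adaptor genes passed with edgeR, DESeq2 or limma voom, and 0 of 3 had an unadjusted p under 0.05 with any of these tools.

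Both transcription factor genes were very low in WT and higher in Eumyc. Pax5 (ENSMUSG00000014030, chromosome 4 from 44524757 to 44710487) had 10, 8 and 5 counts in WT against 108, 124 and 111 in Eumyc, which is 0.361, 0.216 and 0.300 CPM against 2.49, 1.92 and 1.67 CPM. The log2 fold change was 2.80 ± 0.33, with an edgeR adjusted p of 0.000450. Ebf1 (ENSMUSG00000057098, chromosome 11 from 44617317 to 45008091) had 1, 0 and 0 counts in WT against 14, 24 and 20 in Eumyc. The counts of 0 at these depths allow up to 0.0811 CPM in WT 2 and 0.180 CPM in WT 3, taking 3 counts as the limit, and the Eumyc libraries stood at 0.323, 0.371 and 0.301 CPM. Pooled over libraries, the Ebf1 rate was 26.5 times that of WT with a counting interval of 4.56 to 1063, since the WT side rests on 1 count. Ebf1 was called (edgeR adjusted p = 0.00333), and its fitted log2 fold change of 4.46 ± 0.85 depended on the prior count and was 6.93 without WT 1, which holds that count. Exons of Pax5 overlap the antisense genes Gm12462 and 5730488B01Rik over 1.41% and 7.18% of the exonic bases, and both were listed at 0 in every library.

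**Figure D3:**
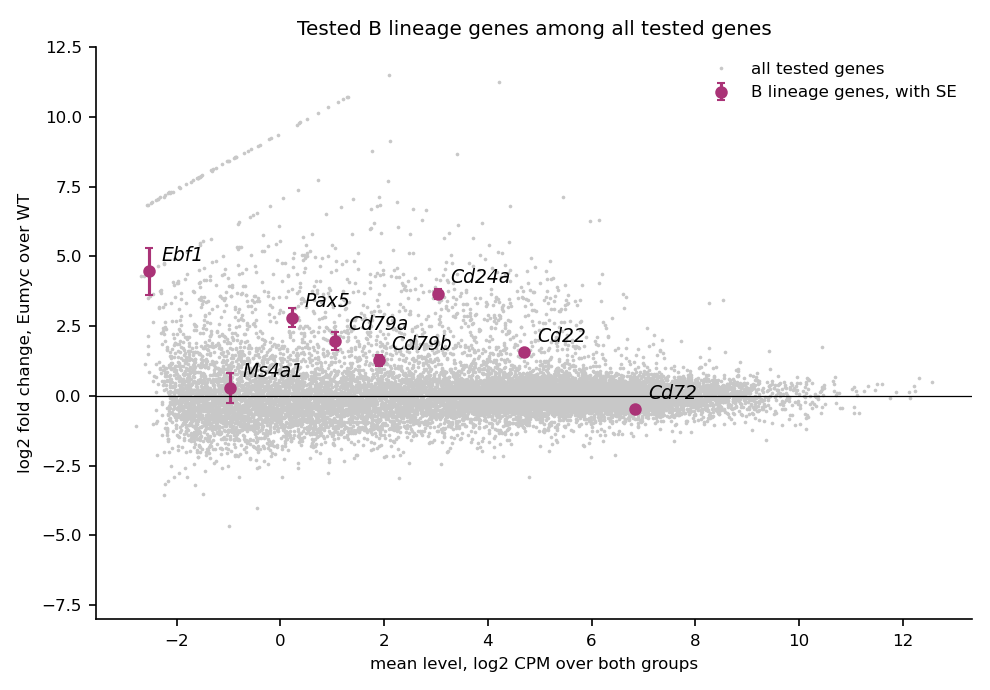
Log2 fold change of Eumyc over WT (vertical axis) against the mean level in log2 CPM (horizontal axis) for all 15458 tested genes (grey) and the 8 tested B lineage genes (purple, whiskers are the SE). Cd24a and Ebf1 have the highest values among the 8, Cd72 is the most abundant and lies below 0, and Ms4a1 lies near 0.

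The inhibitory receptor genes moved in opposite directions. Cd22 (ENSMUSG00000030577, chromosome 7 from 30865402 to 30880342) encodes a lectin that binds sialic acid and measured 11.7, 14.7 and 13.2 CPM in the WT libraries against 39.7, 36.5 and 40.2 CPM in Eumyc. All 3 Eumyc libraries were above all 3 WT libraries, and the spread within a group was small beside the gap. The log2 fold change was 1.55 ± 0.10, with an edgeR adjusted p of 9.56e-05, and the authors' deposited table gave an adjusted p of 7.30e-34. Cd72 (ENSMUSG00000028459, chromosome 4 from 43446462 to 43454628) encodes a C-type lectin and measured 127, 132 and 143 CPM in the WT libraries against 99.99, 99.2 and 88.8 CPM in Eumyc. Here every Eumyc library was below every WT library. Cd72 fell by 0.48 on the log2 scale (SE 0.07, edgeR adjusted p = 0.000950), and the authors' deposited table gave -0.48. The fall did not pass a test against a 1.5-fold change (adjusted p = 1), which called 3.67% of genes lower and 8.15% higher.

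The Cd72 level is less certain than that of the other genes. Its exons overlap those of Tesk1, a protein kinase gene on the other strand, over 1423 of 3422 exonic bases or 41.6% in the GENCODE M21 annotation, and 36.7% of its 50-base words also occur in Tesk1 transcripts. Because no source used here gives the strand setting, reads from the shared stretch cannot be assigned. Tesk1 was at 47.8 ± 1.31 CPM in WT against 47.2 ± 5.51 CPM in Eumyc (SD, n = 3 each), with a log2 fold change of -0.02 ± 0.09 that did not pass (edgeR adjusted p = 0.873). Cd22 overlaps the antisense gene Gm29439 over 9.50% of its exonic bases, and that gene was listed at 0 in every library. Of the 50-base words of the remaining genes, at most 8.31% (Cd79a) occurred in annotated transcripts of another gene.

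The ligand and relatives of these receptors were also measured. Sema4d, which encodes the CD72 ligand CD100, rose from 341 ± 13.9 to 570 ± 26.5 CPM (log2 fold change 0.74 ± 0.06, edgeR adjusted p = 0.000177). Siglecg encodes a relative of CD22 that also binds CD24. It rose from 0.272 ± 0.0775 to 1.2 ± 0.40 CPM, with a log2 fold change of 2.12 ± 0.41 and an edgeR adjusted p of 0.00339. Selp, which encodes the CD24 ligand P-selectin, was at 1.47 ± 0.0827 and 1.34 ± 0.121 CPM without passing the test.

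Cd24a had the largest well-measured change of the 9 genes. The gene (ENSMUSG00000047139, chromosome 10 from 43578284 to 43584265) had 26, 50 and 22 counts in WT against 729, 929 and 959 in Eumyc. This is 0.938, 1.35 and 1.32 CPM against 16.8, 14.4 and 14.4 CPM, with no overlap. The log2 fold change was 3.66 ± 0.18, with an edgeR adjusted p of 2.66e-05, and the authors' deposited table gave 3.35 with an adjusted p of 3.03e-58. CD24 is not restricted to B cells and is known from red cell precursors, neutrophils and immature lymphocytes. The summed CPM of the erythroid list was 14.9 to 33.8 in WT and 61.8 to 73.3 in Eumyc, with 8 of 9 tested genes higher (1 of them at the filter level in 0 WT libraries) and Hbb-bs and Hba-a1 the most abundant. That of the neutrophil list was 4.22 to 7.01 in WT and 64.9 to 89.3 in Eumyc, with 10 of 10 genes higher (4 of them at the filter level in 0 WT libraries) and S100a9 and Csf3r the most abundant. The 10 genes of cell division summed to 76.8 to 362 CPM in WT against 1575 to 2304 CPM in Eumyc, with 10 of 10 higher. Over all tested genes 25.7% were called higher. Mki67 was at 64.6 ± 62.3 and 673 ± 115 CPM. Their part in the Cd24a difference was not tested. Within Eumyc, Cd24a was highest in Eumyc 1, while the neutrophil sum was highest in Eumyc 1 and the erythroid and cell division sums were highest in Eumyc 3.

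Ms4a1 and Blk were near the limit of detection. Ms4a1 (ENSMUSG00000024673, chromosome 19 from 11249675 to 11266241) had 4, 29 and 7 counts in WT against 27, 29 and 43 in Eumyc, or 0.144, 0.784 and 0.419 CPM against 0.623, 0.449 and 0.647 CPM. WT 2 was the highest of all 6 libraries and WT 1 the lowest, so the groups overlapped. The log2 fold change was 0.29 ± 0.54 and did not pass (edgeR adjusted p = 0.674), and the pooled rate was 1.13 times that of WT with a counting interval of 0.775 to 1.67. It was 1.13 on the log2 scale without WT 2 and -0.14 without WT 1, and neither value passed (adjusted p = 0.145 and 0.809). Blk (ENSMUSG00000014453, chromosome 14 from 63372837 to 63417187) had 5, 1 and 1 counts in WT against 20, 16 and 42 in Eumyc, that is 0.180, 0.0270 and 0.0599 CPM against 0.462, 0.247 and 0.632 CPM. Its Eumyc libraries lay above its WT libraries, though Eumyc 2 was close to WT 1. Blk was below the expression filter. With no filter its log2 fold change was 2.33 ± 0.76 (edgeR adjusted p = 0.0282, in a fit that called 17% of 25212 genes higher and 12.3% lower), and its pooled rate was 5.08 times that of WT with a counting interval of 2.35 to 13.1.

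Other members of the families of Ms4a1 and Blk were measured in the same libraries. Of 10 tested Ms4a genes other than Ms4a1, 4 rose and 1 fell (median log2 fold change 0.30), where 25.7% of all tested genes were called higher and 23.1% lower. The most abundant, Ms4a4b, was at 894 ± 106 and 873 ± 85.4 CPM without passing the test, and Ms4a6b rose from 152 ± 14.5 to 179 ± 10.1 CPM. Ms4a6d and Ms4a4a rose by 4.20 ± 0.53 and 3.56 ± 0.35 on the log2 scale, and Ms4a15 fell by 1.51 (SE 0.18). Of 7 Src family kinases other than Blk, 3 rose and 2 fell (median 0.0013). Lck, the main kinase of this family in T and NK cells, was at 697 ± 41.0 and 698 ± 54.5 CPM without passing the test. Fgr, which is known from myeloid cells, rose by 2.04 ± 0.21, Yes1 fell by 1.33 (SE 0.26) and Fyn fell from 903 ± 52.0 to 782 ± 29.4 CPM. In summed CPM the monocyte and macrophage list was at 159 to 184 in WT and 492 to 1039 in Eumyc, highest in Eumyc 1. In that list 7 of 12 genes were higher, with Csf1r and Lyz2 the most abundant. Its part in the changes of the family members was not tested.

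If all 9 genes are added, the groups were at nearly the same level, because Cd72 dominated the sum. The summed CPM, here of all gene counts without TMM, was 154 ± 10.4 in WT and 159.8 ± 5.22 in Eumyc (SD, n = 3 each). Cd72 gave 86.9% to 88.9% of the counts of the 9 genes in the WT libraries and 57.1% to 61.7% in the Eumyc libraries. The share of Cd22 was 8.14% to 9.71% in WT and 22.7% to 25.9% in Eumyc, and that of Cd24a was 0.656% to 0.893% and 8.94% to 9.92%. Without Cd72, a choice made after the values were seen, the sum was 18.6 ± 2.25 CPM in WT against 65.1 ± 3.71 CPM in Eumyc.

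The proportions of the genes to each other within a library also differed, and these need no scaling between libraries. Per count of Cd79a, Cd72 had 108 to 232 counts in WT against 27.1 to 33.6 in Eumyc. Cd24a had 1.00 to 2.38 in WT and 4.52 to 4.86 in Eumyc. These ranges did not overlap, with Cd72 lower and Cd24a higher in relation to Cd79a. Cd79b had 2.00 to 3.90 counts per Cd79a count in WT and 1.49 to 1.74 in Eumyc, and Pax5 had 0.227 to 0.476 and 0.524 to 0.675. Cd22 had 10 to 25.9 in WT and 10.8 to 12.6 in Eumyc, so its Eumyc range lay inside its WT range. Ms4a1 had 0.190 to 1.38 and 0.152 to 0.203, and Blk 0.0455 to 0.238 and 0.0838 to 0.198, which overlapped. For each of these genes the 3 Eumyc libraries were closer to each other than the 3 WT libraries, where each ratio rests on 21 or 22 Cd79a counts.

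**Figure D4:**
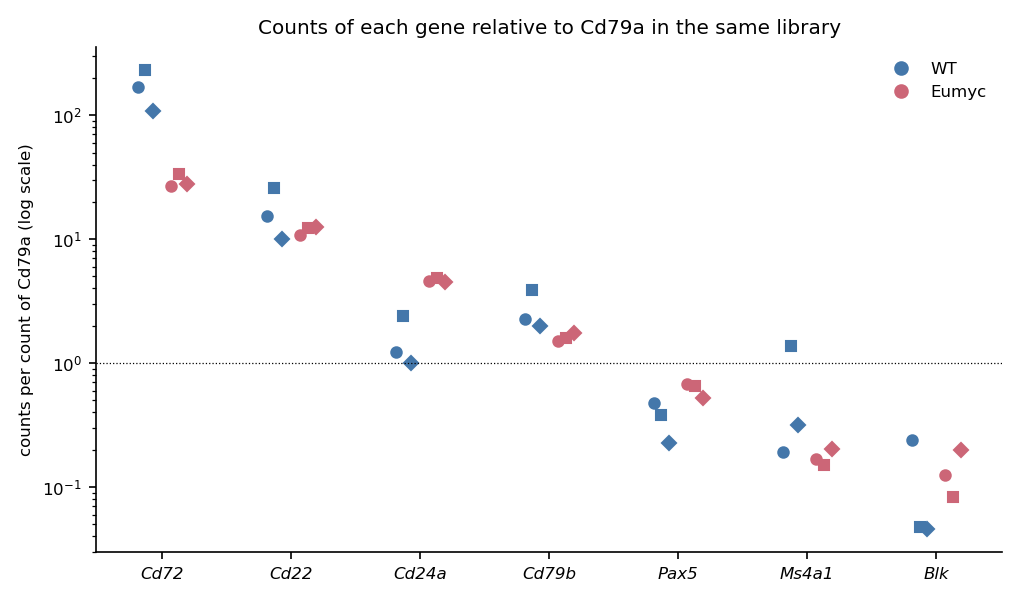
Counts of 7 genes per count of Cd79a in the same library (vertical log axis), WT blue and Eumyc red, with symbols for libraries 1 (circle), 2 (square) and 3 (diamond). Cd72 is lower and Cd24a higher in Eumyc, while the ranges of Cd22, Ms4a1 and Blk overlap between the groups; Ebf1 is not drawn because 2 WT libraries have no count.

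Of 17 tested genes in a list of other B cell surface genes 9 rose, 2 fell and 6 did not pass (median log2 fold change 1.62). The shares over all tested genes were 25.7% higher and 23.1% lower. The genes Cd40, Fcrl5, Ly6d and Cxcr5 reached the filter level in 0 WT libraries and entered the test only through Eumyc. Of the other 13 genes 6 rose. Fcrl5, an Fc receptor-like gene of mature B cells, had 5, 0 and 0 counts in WT against 366, 381 and 539 in Eumyc. Cd180, a Toll-like receptor relative of B and myeloid cells, rose from 1.21 ± 0.615 to 27.2 ± 14.7 CPM, and Cd40, the receptor for T cell help, rose by 4.66 ± 1.11 on the log2 scale. Cd40 had 128 counts in Eumyc 1 and 34 and 42 in Eumyc 2 and 3, and Cd180 was also highest in Eumyc 1, with 1901 counts against 1064 and 1404. Cd37, a tetraspanin shared by lymphocytes, fell from 541 ± 25.9 to 407 ± 20.9 CPM, and Cd1d1, a lipid-presenting molecule, fell from 44.8 ± 4.84 to 18.6 ± 0.850 CPM. The mature B cell genes Cr2, which encodes a complement receptor, and Tnfrsf13c, which encodes the BAFF receptor, were at 0.461 ± 0.0429 and 2.95 ± 0.271 CPM in WT against 0.556 ± 0.0477 and 2.60 ± 0.688 CPM in Eumyc and did not pass. Fcer2a, which encodes CD23, was below the filter, with 3, 8 and 7 counts in WT against 2, 3 and 8 in Eumyc.

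Of 20 tested genes that carry the B cell receptor signal 7 rose, 4 fell and 9 did not pass (median log2 fold change 0.05), where 25.7% of all tested genes were called higher and 23.1% lower, so the counts lie near the background. Dok3, an inhibitory adaptor, rose by 3.23 ± 0.34 on the log2 scale, the kinase gene Btk by 2.40 ± 0.37 and the adaptor gene Blnk by 1.85 ± 0.34. Blnk went from 0.399 ± 0.127 to 1.45 ± 0.249 CPM and Btk from 1.93 ± 1.02 to 9.72 ± 3.33 CPM. The kinase gene Lyn rose from 87.0 ± 9.72 to 135 ± 23.7 CPM, and the phospholipase gene Plcg2 rose from 232 ± 13 to 358 ± 11.8 CPM. Neither Syk, at 465 ± 25.7 and 455 ± 38.9 CPM, nor Csk, a kinase that restrains the Src family, at 471 ± 8.88 and 514 ± 9.87 CPM, passed the test. Pik3cd, the most abundant of the list in WT, fell by 0.27 on the log2 scale (SE 0.06).

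**Figure D5:**
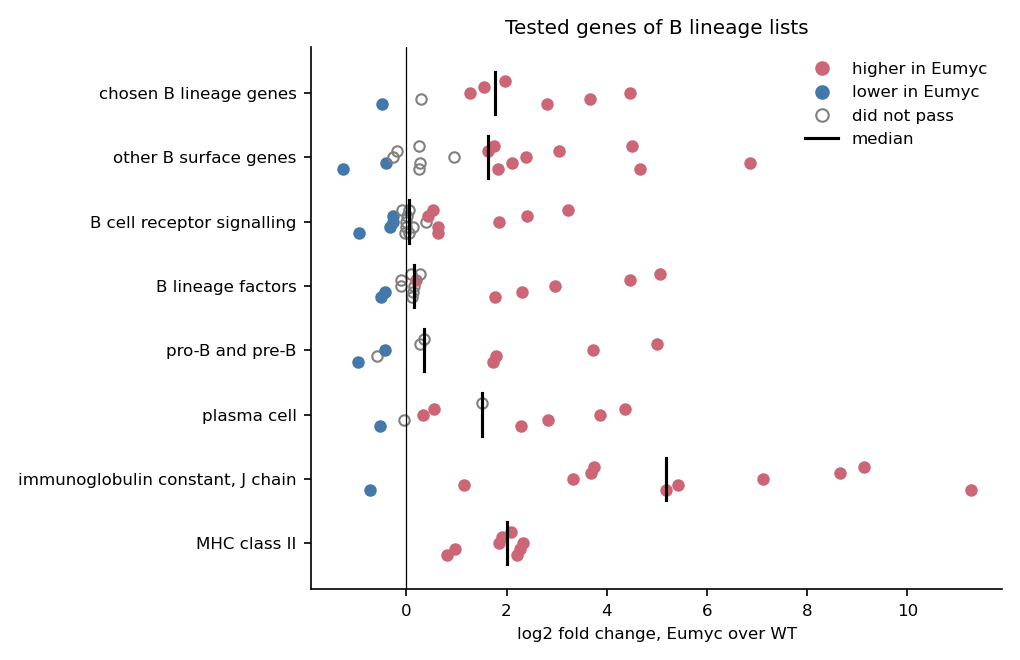
Log2 fold change of Eumyc over WT (horizontal axis) of the tested genes of 8 lists, coloured by the edgeR call, with the list median as a bar; values of genes with almost no WT counts depend on the prior count. The B cell receptor signalling and B lineage factor lists centre near 0, and the immunoglobulin list reaches the highest values.

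Among 15 other B lineage transcription factor genes 6 rose, 2 fell and 7 did not pass (median 0.16), where 25.7% of all tested genes were called higher and 23.1% lower. Bcl11a had 3, 0 and 3 counts in WT against 142, 108 and 199 in Eumyc, and passed the filter only through Eumyc. Pou2af1, a coactivator of immunoglobulin gene transcription, rose from 0.656 ± 0.0766 to 5.18 ± 0.614 CPM, and Spib rose from 0.403 ± 0.238 to 1.84 ± 0.470 CPM. Spi1, which encodes PU.1 and is also a main factor of myeloid cells, rose by 4.46 ± 0.38 on the log2 scale and was highest in Eumyc 1. Ikzf1 and Ikzf3, which NK cells express at high levels, were at 948 ± 49.9 and 630 ± 18.6 CPM in WT. Ikzf3 rose by 0.19 ± 0.06, and Ikzf1 and Foxo1 did not pass. The lower genes, Bach2 and Lef1, were named after their values were seen. Neither was called without WT 1, WT 2 or Eumyc 1, where the count that fell was 0 with edgeR (1, 1 and 2 at an unadjusted p under 0.05), and it was 1 without Eumyc 3 and 3 without WT 3.

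Of the 16 pro-B and pre-B genes 9 were tested, of which 4 rose and 2 fell (median 0.35). For this list and the plasma cell list the shares over all tested genes were 25.7% higher and 23.1% lower. The risers Flt3, which is also a dendritic cell gene, and Bst1 reached the filter level in 0 WT libraries, with 1, 0 and 1 and 3, 0 and 2 counts in WT against 40, 66 and 49 and 55, 50 and 42 in Eumyc. Vpreb1 was not tested and had 12, 21 and 3 counts in WT against 9, 9 and 9 in Eumyc. Vpreb2 and Rag2 had no count in any library, and Rag1 and Dntt had none in WT and at most 5 and 8 in an Eumyc library. Igll1, a surrogate light chain gene, had at most 2 counts in any library. Vpreb3 rose from 0.289 ± 0.197 to 1.01 ± 0.161 CPM, and Cd93, also a marker of myeloid cells, rose from 4.01 ± 0.733 to 13.9 ± 3.51 CPM. Sox4 fell by 0.96 on the log2 scale (SE 0.17) and Myb by 0.43, and the count of genes that fell was 1 without Eumyc 1 or Eumyc 3. Of 9 tested plasma cell genes 6 rose and 1 fell (median 1.52). The gene that fell was Prdm1, from 127 ± 12.0 to 88.1 ± 3.76 CPM (edgeR adjusted p = 0.000983). Txndc5, the most abundant of the list in both groups, was at 167 ± 4.18 and 161 ± 0.922 CPM without passing the test. Mzb1 rose from 0.244 ± 0.118 to 3.60 ± 1.02 CPM and Derl3 from 0.208 ± 0.105 to 1.62 ± 0.215 CPM, and Sdc1 had 3, 0 and 1 counts in WT against 38, 85 and 72 in Eumyc, and also passed the filter only through Eumyc. Xbp1, which NK cells also express, rose from 97.4 ± 5.99 to 143 ± 8.88 CPM.

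Of 11 tested immunoglobulin constant genes 10 rose and 1 fell (median log2 fold change 5.19), where 25.7% of all tested genes were called higher and 23.1% lower. The risers Ighg2b, Ighg2c, Ighg3 and Iglc2 reached the filter level in 0 WT libraries and entered the test only through Eumyc, and of the other 7 genes 6 rose. The gene that fell was Ighd, from 4.51 ± 0.850 to 2.75 ± 0.362 CPM (edgeR adjusted p = 0.0182). Ighm rose from 181 ± 3.54 to 401 ± 208 CPM and Igkc from 0.806 ± 1.02 to 86.0 ± 45.5 CPM, and both were highest in Eumyc 3. Ighg2c had 1 count over the 3 WT libraries and 1243, 2810 and 2623 counts in Eumyc. The summed CPM of the list was 184 to 198 in WT and 399 to 935 in Eumyc. In WT the sum was almost all Ighm, with 4909, 6809 and 3014 counts against 4, 11 and 33 of Igkc. Cd79a and Cd79b differed less among the Eumyc libraries than these genes did, at 2.95 to 3.69 and 4.70 to 5.55 CPM. All 8 tested MHC class II genes rose (median 2.00), and their summed CPM was 54.2 to 106 in WT, highest in WT 3, and 206 to 287 in Eumyc. The conventional dendritic cell list, a cell type that also carries MHC class II, had 5 of 8 genes higher (2 of them at the filter level in 0 WT libraries) and sums of 735 to 827 CPM in WT against 1185 to 1265 CPM in Eumyc. Itgax and Batf3 were the most abundant of this list in Eumyc. Itgax rose from 769 ± 48.6 to 1215 ± 55.2 CPM and Batf3 from 2.37 ± 0.515 to 9.11 ± 1.07 CPM. The sums were therefore mostly Itgax, since no other gene of the list averaged above 10.2 CPM in either group. The part of dendritic cells in the MHC class II differences was not tested. Of the 12 T cell genes 3 rose, 1 fell and 8 did not pass, so the share that rose lies near the 25.7% of all tested genes. Their sums were 220 to 223 CPM in WT against 263 to 306 CPM in Eumyc. The most abundant in Eumyc were Lat and Cd3g. Lat was at 69.2 ± 4.23 and 65.5 ± 3.26 CPM without passing the test, and Cd3g rose from 14.9 ± 1.29 to 64.8 ± 4.72 CPM.

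The genes whose pattern over the 6 libraries was closest to each of the 8 tested genes were found by the root mean square difference of centred log2 CPM, among about 11079 tested genes that averaged 1 CPM or more. Genes with Gm, Rik and some clone names were left out. Immunoglobulin and T cell receptor genes were also left out and so could not appear. For Cd79a the nearest genes were Cd74 (0.118), E2f2 (0.123) and Spry4 (0.125), and for Cd79b they were Cmc2 (0.0861), Myo5a (0.0920) and Tmem97 (0.0933). For Cd22 the nearest were Il21r (0.0672), the pseudogene Nutf2-ps1 (0.0869) and Dclk2 (0.109). For Cd72, whose pattern was matched most closely, they were Klhl42 (0.0333), Ssh3 (0.0379) and Zc3h7a (0.0396). For Ebf1 the nearest gene was Pax5 (0.251), while Pax5 itself lay nearer to Sgms1 (0.219), Marcksl1 (0.228) and Slc8a1 (0.239). Cd24a was nearest to Mrgpre (0.280) and Bcl2a1d (0.292), and Ms4a1 to Fam114a1 (0.240). With 2 groups of 3 libraries, likeness mostly means a similar difference between the groups.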

How the data were processed

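RNA of sorted splenic NK cells was sequenced in 3 WT and 3 Eumyc libraries with TruSeq chemistry, as the labels' protocols state. The authors deposited whole-number counts per gene. The submitters' processing notes name STAR 2.5.2, HTSeq 0.6.1 and DESeq2 1.10.1 with the builds mm10 and GRCm38, while the strand setting and annotation release are not stated in what was used here. A second table deposited by the authors holds their comparison, with base mean signal, log2 fold change, its error, a test score and p-values for 10292 genes, which lists 5 of the 9 genes.

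All genes' counts entered edgeR 4.0.16, run in R 4.3.3. Low genes were dropped by filterByExpr (minimum count 10, 15458 genes kept), scaling was TMM, the design held the group alone and the quasi-likelihood test was two-sided. Benjamini-Hochberg adjustment ran across every tested gene, with a threshold of 0.05. The SE is the log2 fold change divided by the root of the F statistic. TPM used union exon lengths from GENCODE M21, found for 99.6% of genes. The 9 genes and all lists were chosen with earlier results of these data known. Besides the 9, genes were named by rule: a set of names, up to 3 called genes of each B lineage list with the largest change and a mean of 1 CPM or more in at least 1 group, and the 2 most abundant genes of lists of other cell types. Cd1d1, Cr2, Tnfrsf13c, Fcer2a, Tesk1, Bach2, Lef1, Myb, Vpreb2, Rag1, Rag2, Dntt, Igll1, Vpreb1, Flt3, Bst1, Ly6d, Cxcr5 and Iglc2, and the most abundant genes of the B lineage and family lists, fall outside this rule and were named after their values were seen. The same holds for Prdm1 and Ighd. Alternatives were DESeq2 1.42.0, limma 3.58.1 voom, other scalings, filters and depths, a null of a 1.5-fold change, blocking on replicate number and omitting single libraries.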

Additional observations from a re-analysis of the deposited data

How the results depend on the processing

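Cd79a, Cd79b, Pax5, Ebf1, Cd22 and Cd24a kept a higher call in Eumyc under every alternative that could test them, 16 or 17 each, and Ms4a1 had no call under any of 16. Log2 fold changes ranged from 1.69 to 2.31 for Cd79a, 1.13 to 1.40 for Cd79b, 2.58 to 3.02 for Pax5, 3.37 to 6.93 for Ebf1, 1.47 to 1.64 for Cd22 and 3.50 to 3.85 for Cd24a. Cd72 stayed lower (-0.52 to -0.43) and lost its call only in the test against a 1.5-fold change. Requiring 3 CPM in 3 libraries removed low genes, which left 3 of the 9 genes, 3 surface genes, 1 pro-B or pre-B gene and 3 plasma cell genes called higher. Cd79b and Cd24a entered that test only through Eumyc. Against a 1.5-fold change, edgeR called 1 surface gene and 1 receptor signalling gene lower and 3 receptor signalling genes higher. It called 0 of the 9 genes, 0 factor genes, 0 pro-B or pre-B genes and 0 plasma cell genes lower, where 0, 0, 1 and 0 had an unadjusted p under 0.05. Without the fold threshold, DESeq2 and limma voom each called 1, 2, 2 and 1 of them lower. Leaving out 1 library, the factor genes called lower ranged from 0 to 3 and the pro-B and pre-B genes called lower from 1 to 2. The sum over the 9 genes was 1.04 times that of WT and 0.948 times without Cd24a. Replicate numbers are shared between the groups, but the correlations of same-numbered libraries were 0.0404, 0.0985 and 0.126, so they were not taken as pairs, although each library correlated best with its own number. With a replicate block 6 of the 9 genes were higher and 1 lower, and Cd79a had a log2 fold change of 1.98. Depth limits Ebf1, Blk, Pax5, Cd79a and Ms4a1, whose WT libraries held at most 29 counts each.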
